A study of Mus musculus with 8 samples.

Results

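The RAS-ERK cascade was followed through 34 of its genes in mouse splenic B cells that had been sorted into IL-10+ and IL-10- cells. The genes were taken as a list of symbols by a rule that uses no measured value, though the list was drawn up with earlier results of these data known, and all 34 were found among the 26589 genes of the deposited expression table. They were placed in 6 tiers. These were 5 adaptors, 5 guanine nucleotide exchange factors for Ras (RasGEFs), 4 Ras proteins, 5 GTPase-activating proteins for Ras (RasGAPs), 11 kinases and their scaffold, and 4 inhibitors.

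The 8 bulk RNA-seq libraries comprised 4 IL-10+ and 4 IL-10- samples. Both groups came from IL-10-eGFP Tiger mice, in which a green fluorescent protein reports transcription of Il10, and both consisted of purified B cells kept for 48 h with lipopolysaccharide at 3 µg/ml before the sort. The groups therefore share strain, culture and stimulus and differ in the sort gate, and there was no unstimulated group. Age, sex, and whether a replicate number marks a mouse, a pool or a culture are not given in the labels, so the p-values reflect only the variation among these 8 libraries, part of which may be technical. The series title names the ERK pathway in the control of IL-10, and the comparison asks which transcripts of that pathway differ between producing and non-producing cells.

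In this cascade, adaptors such as GRB2 and SHC1 carry SOS exchange factors to activated receptors, and RASGRP proteins are recruited by diacylglycerol after antigen receptor signalling. Exchange factors load Ras with GTP, and RasGAPs return it to the GDP-bound state. GTP-bound Ras activates RAF kinases, which phosphorylate the kinases MEK1 and MEK2, which phosphorylate ERK. ERK then activates the RSK and MNK kinases, while Sprouty and SPRED proteins dampen the signal. In lipopolysaccharide-stimulated cells of the immune system, the kinase TPL2, encoded by Map3k8, gives Toll-like receptors a route to MEK that does not pass through Ras.

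Levels are given as FPKM, read counts scaled by the length of the gene and the read total of the library. Library totals recovered from the FPKM values lay between 27380388 and 29968266 reads, and 1 read in a gene of 1 kb was worth 0.0334 to 0.0365 FPKM. Changes are differences of mean log2(FPKM + 1), IL-10+ minus IL-10-, with the standard error (SE) from limma. The threshold for a call was a p under 0.05 after Benjamini-Hochberg adjustment across 11329 tested genes, which reached 1 FPKM in 4 or more libraries. A fold is the ratio of group means in FPKM, and the ± values are SD with n = 4 libraries. In bulk RNA, fewer cells expressing a gene and less of its RNA per cell cannot be told apart.

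All 5 B cell markers were present, with a summed level of 1157 to 1450 FPKM in the IL-10+ group and 1252 to 1682 FPKM in the other, and 2 of the 5, Ms4a1 and Pax5, were called lower in IL-10+ cells (4 lower and 1 higher with the replicate number as a block). All 6 plasmablast markers (Prdm1, Xbp1, Irf4, Sdc1, Jchain and Mzb1) were called higher. They summed to 1331 to 1357 FPKM in the IL-10+ group and to 314.9 to 441.8 FPKM in the IL-10- group, and none was at 0. Immunoglobulin genes took 13.2% to 16.8% of all FPKM in IL-10+ libraries and 3.73% to 4.73% in IL-10- libraries. These differences accompany every cascade gene that changed between the groups, and their part in those changes was not tested. The 7 T cell markers summed to at most 2.21 FPKM, the 5 macrophage and monocyte markers to at most 1.29 FPKM and the 3 detected natural killer cell markers to at most 0.0598 FPKM in any library. Among 5 dendritic cell, 4 neutrophil, 3 erythroid, 2 detected platelet and 2 stromal markers, 1 was called, the globin gene Hbb-bt, lower in IL-10+ cells (0.699 ± 0.183 against 2.12 ± 0.427 FPKM). Hbb-bt passed the filter of 1 FPKM only through the IL-10- libraries, so its call is not independent support. With the replicate number as a block the dendritic cell marker Flt3 (8.81 ± 1.63 against 11.5 ± 2.32 FPKM, limma adjusted p = 0.000659) and the endothelial marker Pecam1 (11.7 ± 4.18 against 18.6 ± 6.14 FPKM, 0.000222) were called lower too. The other 4 dendritic cell markers and the other stromal marker, Col1a1, were under 1 FPKM in every library, so Flt3 and Pecam1 stood alone in their lists. The part of these markers of other cells in the cascade's changes was not tested.

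Of the 34 cascade genes, 30 passed the filter on low values, and 9 of these 30 (30.0%) were called between IL-10+ and IL-10- cells, against 19.7% of all genes tested. In IL-10+ cells 4 were called higher, namely Shc1, Map3k8, Rps6ka3 and Mknk1, where 10.6% of all genes were called higher. Another 5 were called lower, namely Grb2, Rras2, Rasal3, Mapk3 and Mknk2, where 9.18% of all genes were called lower. The changes were moderate, with a median absolute log2 change of 0.38 over the 9 called cascade genes against 0.53 over all 2236 called genes. Across the 30 tested cascade genes the median log2 change was -0.05, close to the -0.06 of all genes tested.

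The calls fell in 4 of the 6 tiers. Kinases held 5 of them, 3 higher and 2 lower among 11 tested (45.5%, against 19.7% of all genes). Among the 3 tested adaptors 1 was higher and 1 lower (66.7%). The Ras proteins (4 tested) and the RasGAPs (5 tested) each held 1 lower gene. None of the 5 RasGEFs and neither of the 2 tested inhibitors was called in limma (0 and 1, Spred2, at an unadjusted p under 0.05), although 2 RasGEFs and 1 inhibitor passed when the replicate number entered the fit as a block.

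With that block, 16 of the 30 genes were called (53.3%), 7 higher and 9 lower, against 53.7% of all genes, so the share of cascade genes was then that of the background. All 9 genes called without the block were also called with it, in the same direction. The 4 IL-10+ values did not overlap the 4 IL-10- values in 11 of the 30 genes (36.7%), against 25.2% of all genes tested. These were the 9 called genes together with Map2k1 and Spred2. The counts moved when single libraries were left out. The higher count fell from 4 to 0 without IL-10- replicate 2 (5 at an unadjusted p under 0.05 in limma, with or without it). It fell to 1 without IL-10- replicate 3 or without IL-10+ replicate 2, and to 2 without IL-10+ replicate 4. Over all genes the higher count was 1196 with every library, and 1044, 1040, 991 and 1070 in these fits in the order named. The lower count of cascade genes fell from 5 to 3 without IL-10+ replicate 3 or 4. Over all genes the lower count was 1040 with every library, and 607 and 725 in those fits.

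**Figure D1:**
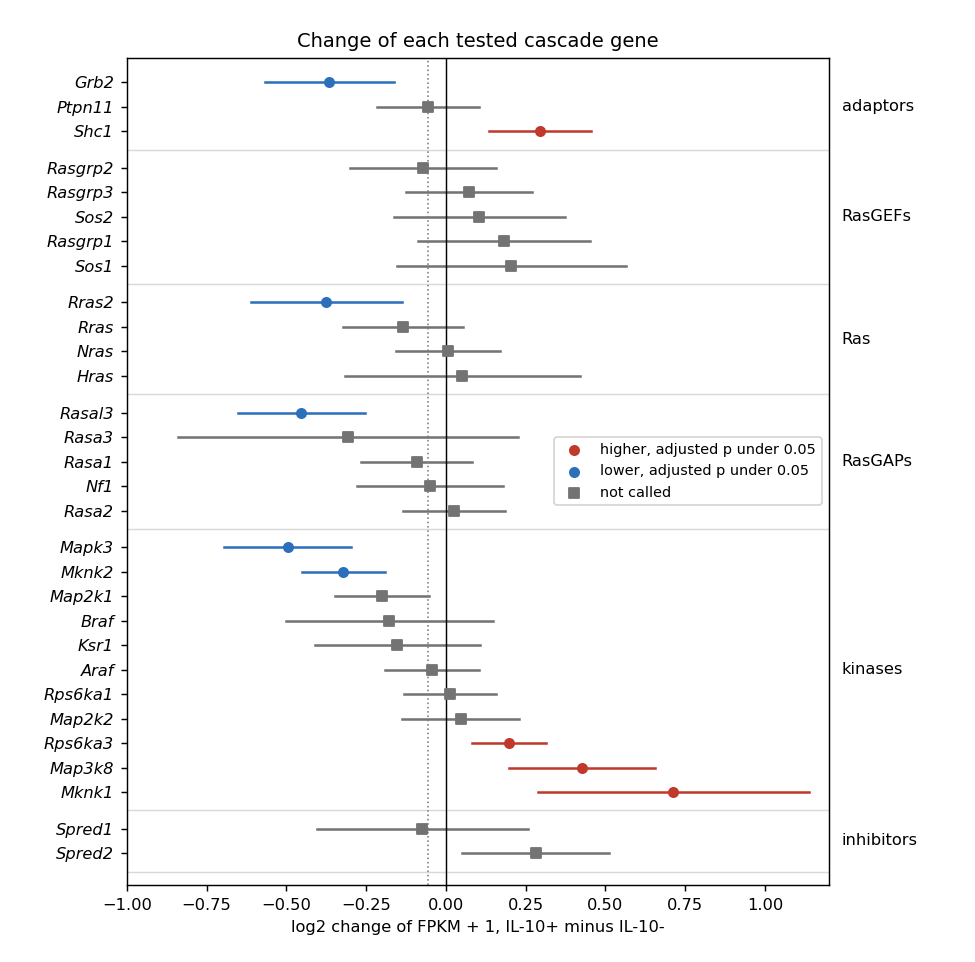
Difference of mean log2(FPKM + 1), IL-10+ minus IL-10-, for the 30 tested cascade genes (x axis), grouped by tier and sorted within it, with 95% confidence intervals from limma as bars. The dotted line is the median of all 11329 genes at -0.06. The 9 called genes are coloured and lie on both sides of 0, from -0.50 for Mapk3 to 0.71 for Mknk1.

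Levels of the cascade genes spanned from 137.6 to 217.8 FPKM for Grb2, the most abundant, down to Gab1, which was listed at 0 in 6 of 8 libraries. Over all 8 libraries 2 genes averaged at least 100 FPKM, 16 averaged 10 to under 100, 12 averaged 1 to under 10 and 4 averaged under 1. The second was Mknk2, with 103.8 to 139.3 FPKM, and the third Rasgrp3, with 46.5 to 60.2 FPKM. Map2k1 and Rps6ka1 followed at 33.9 to 43.5 and 34.9 to 39.1 FPKM, and their ranges overlapped. The MEK and RSK1 transcripts were thus well above the level of 1 FPKM, while the Sprouty inhibitors and the GAB adaptors averaged under 1 FPKM.

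**Figure D2:**
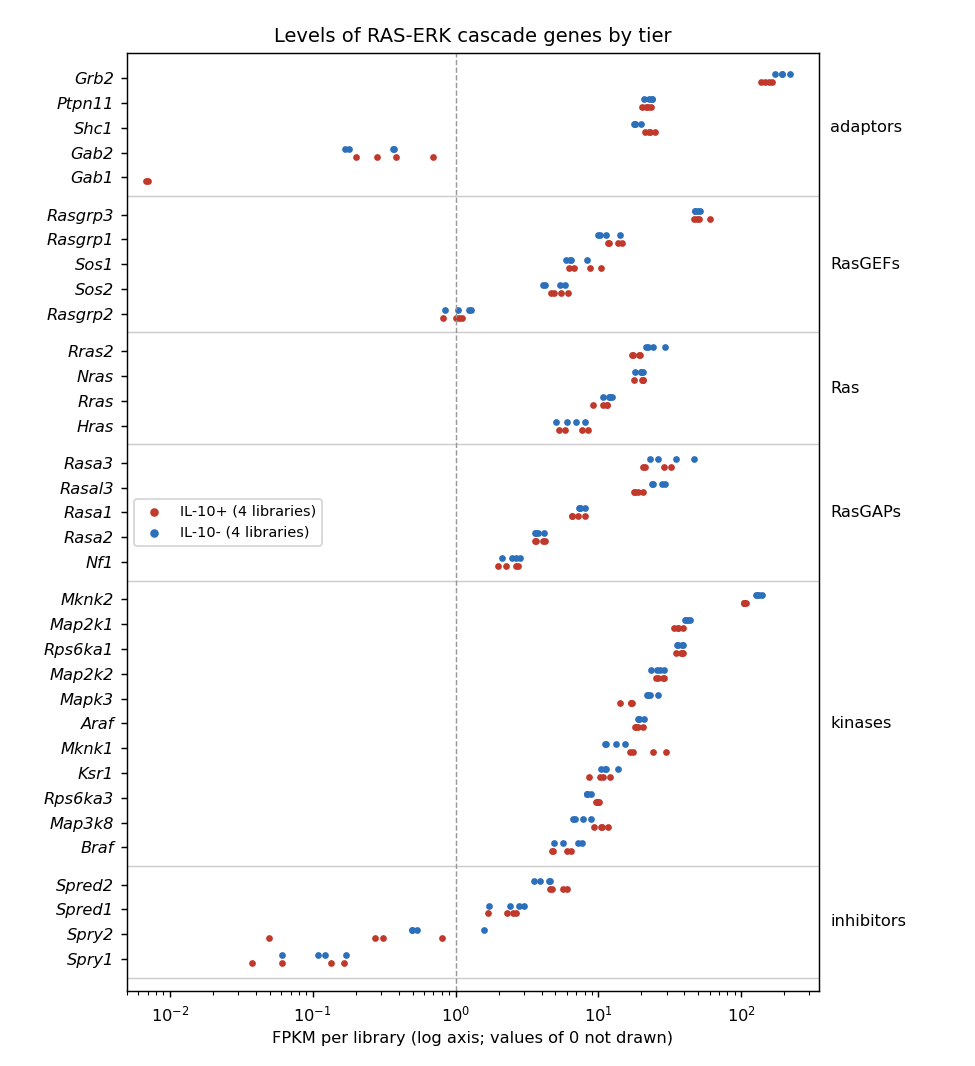
FPKM of each of the 34 cascade genes in each of the 8 libraries on a log axis, by tier and sorted by mean within it; values of 0 are not drawn and the dashed line marks 1 FPKM. Grb2 and Mknk2 lie above 100 FPKM in every library, and Gab2, Gab1, Spry2 and Spry1 average under 1 FPKM.

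Among the adaptors, Grb2, which links phosphorylated receptors and scaffolds to SOS, was lower in IL-10+ cells. It measured 164, 155, 146 and 138 FPKM in IL-10+ replicates 1 to 4 and 218, 193, 194 and 173 FPKM in IL-10- replicates 1 to 4. Every IL-10+ library lay below every IL-10- library, with the highest value in replicate 1 of each group. The means were 150.7 ± 11.5 and 194.6 ± 18.3 FPKM, so IL-10+ cells held 77.5% of the IL-10- level. The log2 change was -0.36 (SE 0.0883, limma adjusted p = 0.0203). This call was lost without IL-10- replicate 3 (adjusted p = 0.0508), IL-10+ replicate 3 (0.0623) or IL-10+ replicate 4 (0.0580).

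Shc1, the adaptor that is phosphorylated at receptors and in turn binds GRB2, moved the other way. IL-10+ replicates 1 to 4 held 24.9, 22.8, 22.5 and 21.1 FPKM, and IL-10- replicates held 19.9, 17.9, 17.7 and 18.2 FPKM. The groups did not overlap, and the means of 22.8 ± 1.57 and 18.4 ± 0.983 FPKM stood 1.24-fold apart. The log2 change was 0.30 (SE 0.0695, limma adjusted p = 0.0179), and the call was lost without IL-10- replicate 2 (0.0513), IL-10- replicate 3 (0.0530) or IL-10+ replicate 2 (0.0517). Grb2 made up 76.9% ± 1.14 of the summed FPKM of the 5 adaptors in IL-10+ and 82.4% ± 1.5 in IL-10- cells, while Shc1 made up 11.7% ± 0.196 and 7.83% ± 0.428.

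Ptpn11, which encodes the phosphatase SHP2 that promotes Ras signalling, averaged 21.8 ± 1.26 FPKM in the IL-10+ and 22.7 ± 1.42 FPKM in the IL-10- group. Its log2 change of -0.05 had a 95% interval of -0.21 to 0.10 and was not called. The docking proteins Gab1 and Gab2 fell below the filter. Gab1 had 1 recovered read in each of 2 IL-10+ libraries and 0 in the other 6, and 3 reads, the limit that a count of 0 allows, are worth at most 0.0216 FPKM. Gab2 had 31 to 117 reads per library, with means of 0.390 ± 0.215 and 0.270 ± 0.112 FPKM. Exact permutation tests, two-sided, returned p = 0.4 for Gab2 and 0.429 for Gab1 (0.571 for both after adjustment over the 4 genes below the filter).

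The RasGEF tier was led by Rasgrp3, a diacylglycerol-responsive exchange factor of B cells. It stood at 46.5, 50.8, 60.2 and 49.3 FPKM in IL-10+ replicates 1 to 4 and at 50.1, 47.2, 51.3 and 47.2 FPKM in IL-10- replicates 1 to 4. The ranges overlapped, and the means of 51.7 ± 5.94 and 48.9 ± 2.1 FPKM gave a log2 change of 0.07 (95% interval -0.13 to 0.27, SE 0.0864, limma adjusted p = 0.611). Rasgrp3 alone took 65.3% ± 5.40 of the summed RasGEF level in IL-10+ and 67.1% ± 3.43 in IL-10- cells.

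Its relative Rasgrp1 was at 14.7, 13.7, 11.9 and 11.7 FPKM in IL-10+ and 14.1, 11.3, 9.99 and 10.2 FPKM in IL-10- replicates 1 to 4. The groups overlapped, yet within each of the 4 numbers the IL-10+ library was the higher. The log2 change was 0.18 (SE 0.117, limma adjusted p = 0.325, and 0.0157 with the replicate block). Sos1 and Sos2, the exchange factors carried by GRB2, were likewise higher within all 4 numbers, with log2 changes of 0.20 and 0.10 and overlapping ranges. Neither was called, and with the replicate block Sos1 passed (adjusted p = 0.0464) and Sos2 did not (0.0961). Rasgrp2, which acts mainly on Rap proteins, averaged 0.997 ± 0.123 and 1.10 ± 0.202 FPKM and was not called.

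Of the Ras proteins only Rras2, also known as TC21, was called, and it was lower in IL-10+ cells. TC21 is known to associate with antigen receptors of lymphocytes. The IL-10+ replicates 1 to 4 had 19.4, 19.6, 17.5 and 17.3 FPKM, against 24.3, 29.5, 21.4 and 22.2 FPKM in the IL-10- replicates. All IL-10+ values lay below all IL-10- values, and IL-10- replicate 2 was the highest. The means of 18.4 ± 1.23 and 24.3 ± 3.62 FPKM correspond to a log2 change of -0.38 (SE 0.104, limma adjusted p = 0.0355).

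The Rras2 call was among the least stable. It was lost without IL-10- replicate 1 (adjusted p = 0.0661) or 2 (0.0525) and without IL-10+ replicate 1 (0.0519), 2 (0.0609), 3 (0.0959) or 4 (0.0879). It was also lost when FPKM were rescaled by median-of-ratios (0.0526) or without immunoglobulin and mitochondrial genes (0.0526), and with no filter on low values (0.0696), while its direction held in each of these fits.

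Nras, which encodes one of the classical Ras proteins, was nearly equal in the groups. It stood at 17.8, 20.1, 20.5 and 20.6 FPKM in IL-10+ replicates 1 to 4 and at 18.1, 20, 19.9 and 20.7 FPKM in IL-10- replicates 1 to 4. Its log2 change was 0.01 with a 95% interval of -0.15 to 0.17 (SE 0.0711, limma adjusted p = 0.958). Rras, the founding member of the R-Ras group, had 11.4, 11.5, 9.21 and 10.7 FPKM in IL-10+ and 12.1, 11.9, 12.5 and 10.8 FPKM in IL-10- replicates 1 to 4. It was lower within all 4 numbers but not called, at a log2 change of -0.13 (SE 0.0820, limma adjusted p = 0.300). Hras was the least abundant at 6.81 ± 1.48 and 6.52 ± 1.28 FPKM, and its log2 change of 0.05 had a wide 95% interval of -0.32 to 0.42.

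The RasGAP tier held 1 called gene, Rasal3, which encodes a RasGAP of blood cells. It measured 20.5, 17.9, 19.0 and 17.6 FPKM in IL-10+ replicates 1 to 4 and 29.1, 24.0, 27.8 and 23.6 FPKM in IL-10- replicates 1 to 4. The highest IL-10+ value lay below the lowest IL-10- value. The group means were 18.8 ± 1.30 and 26.1 ± 2.74 FPKM, with a log2 change of -0.45 (SE 0.0875, limma adjusted p = 0.00722). The call held in all 8 fits that left out a single library, with adjusted p of at most 0.0272. An opposite-strand gene, CT485616.1, shares 13% of the exon bases of Rasal3, and no source used here gives the strand setting of the counting.

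Rasa3, a GAP for Ras and Rap proteins, was the most abundant RasGAP and the most variable gene of the tier. It stood at 32.4 and 28.9 FPKM in IL-10+ replicates 1 and 2 and at 20.5 and 21.3 FPKM in replicates 3 and 4. The IL-10- libraries were divided likewise, with 47.0 and 34.7 against 26.2 and 22.9 FPKM. Within every number the IL-10+ library was the lower, but the ranges overlapped. The log2 change was -0.31 with a 95% interval of -0.84 to 0.23 (SE 0.234, limma adjusted p = 0.411, and 0.0131 with the replicate block).

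Rasa1, the RasGAP that binds phosphorylated receptors, had 8.06, 7.24, 6.52 and 6.50 FPKM in IL-10+ and 8.10, 7.45, 7.44 and 7.34 FPKM in IL-10- replicates 1 to 4. It was lower within all 4 numbers by small amounts, and the log2 change of -0.09 (SE 0.0761) was not called (limma adjusted p = 0.455). Rasa2 at 3.90 ± 0.302 and 3.81 ± 0.236 FPKM and Nf1, which encodes neurofibromin, at 2.41 ± 0.347 and 2.52 ± 0.303 FPKM were not called either. Their 95% intervals on the log2 scale were -0.13 to 0.19 and -0.28 to 0.18.

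At the head of the kinase tier, Araf, Braf and the scaffold Ksr1 were not called. Araf averaged 19.0 ± 1.10 and 19.6 ± 0.935 FPKM, Braf 5.48 ± 0.857 and 6.36 ± 1.28 FPKM, and Ksr1 10.4 ± 1.43 and 11.7 ± 1.47 FPKM in IL-10+ and IL-10- cells. Each was lower within all 4 numbers. Braf and Ksr1 passed with the replicate block (adjusted p = 0.0181 and 0.0278), and Araf did not (0.216).

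Map3k8, which encodes the MEK-activating kinase TPL2, was higher in IL-10+ cells. IL-10+ replicates 1 to 4 had 10.7, 10.4, 9.28 and 11.6 FPKM, and IL-10- replicates had 7.83, 6.82, 6.67 and 8.93 FPKM. The lowest IL-10+ value was above the highest IL-10- value, and replicate 3 was the lowest and replicate 4 the highest library in both groups. The means of 10.5 ± 0.952 and 7.57 ± 1.05 FPKM stood 1.39-fold apart, with a log2 change of 0.43 (SE 0.10, limma adjusted p = 0.0178). The call was lost without IL-10- replicate 2 (0.0529) or IL-10+ replicate 4 (0.0511).

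The MEK genes came next. Map2k1, encoding MEK1, measured 36.0, 39.4, 36.0 and 33.9 FPKM in IL-10+ replicates 1 to 4 and 42.5, 43.5, 40.8 and 40.6 FPKM in IL-10- replicates 1 to 4. The groups did not overlap, but the log2 change of -0.20 (SE 0.0648) missed the threshold (limma adjusted p = 0.0629) and passed with the replicate block (0.00306). Map2k2, encoding MEK2, averaged 27.1 ± 1.73 and 26.2 ± 2.27 FPKM, with a log2 change of 0.05 and a 95% interval of -0.14 to 0.23. Whether the changes of the MEK genes differ from each other was not tested.

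Mapk3, which encodes ERK1, showed the largest fall among the 30 tested of the 34 genes. The gene lies at chr7:126759601-126765819 (GRCm38, plus strand). The 4 IL-10+ libraries had 17.2, 16.9, 14.1 and 17.0 FPKM in order of replicate number, and the IL-10- libraries had 22.4, 21.8, 23.0 and 26.3 FPKM. All IL-10+ libraries were below all IL-10- libraries, and IL-10+ replicate 3 was the lowest. The group means were 16.3 ± 1.48 and 23.4 ± 2.02 FPKM, 1.43-fold lower in IL-10+ cells, with a log2 change of -0.50 (SE 0.0876, limma adjusted p = 0.00450). The call held in all 8 fits that left out a single library, with adjusted p of at most 0.0145.

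Of the RSK kinases, which ERK phosphorylates, Rps6ka3 (RSK2) was called and Rps6ka1 (RSK1) was not. Rps6ka3 had 9.70, 9.73, 9.87 and 10.0 FPKM in IL-10+ and 8.36, 8.28, 8.34 and 8.81 FPKM in IL-10- replicates 1 to 4. The groups did not overlap, and the spread within each was small, with means of 9.84 ± 0.158 and 8.45 ± 0.245 FPKM, 1.16-fold apart. The log2 change was 0.20 (SE 0.0509, limma adjusted p = 0.0263). It was the smallest change among the called genes, and the call was lost without IL-10- replicate 2 (0.0650) or 3 (0.0685) or IL-10+ replicate 2 (0.0674), 3 (0.0736) or 4 (0.0729). Rps6ka1 was the more abundant per length, at 37.5 ± 1.81 and 37.2 ± 1.64 FPKM, with a log2 change of 0.01 (95% interval -0.13 to 0.16).

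The MNK kinases, which ERK and p38 activate and which phosphorylate the translation factor eIF4E, were called in opposite directions. Mknk1 (MNK1) rose, with 29.8, 24.1, 17.6 and 16.7 FPKM in IL-10+ replicates 1 to 4 and 15.5, 13.3, 11.4 and 11.2 FPKM in IL-10- replicates 1 to 4. Replicates 1 and 2 were the higher in both groups, and the lowest IL-10+ library was still above the highest IL-10- library. The means were 22.1 ± 6.12 and 12.8 ± 2.00 FPKM, a 1.72-fold difference. Its log2 change of 0.71 (SE 0.186, limma adjusted p = 0.0280) was the largest rise among the 30 tested of the 34 genes. The call was lost without IL-10- replicate 2 (0.0606), 3 (0.0725) or 4 (0.0731), without IL-10+ replicate 2 (0.0796), and with no filter on low values (0.0693). An opposite-strand gene, Gm29434, shares 5.78% of the exon bases of Mknk1.

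Mknk2 (MNK2), known for its high basal activity, fell. It had 104.1, 108.2, 105.3 and 103.8 FPKM in IL-10+ and 139.3, 129.5, 132.5 and 126.5 FPKM in IL-10- replicates 1 to 4. The groups were well separated, and the IL-10+ libraries lay within a narrow range. The means of 105.4 ± 2.03 and 132.0 ± 5.46 FPKM were 1.25-fold apart, with a log2 change of -0.32 (SE 0.0569, limma adjusted p = 0.00454). The call held in all 8 fits that left out a single library, with adjusted p of at most 0.0181. Mknk2 made up 35.2% of the summed FPKM of the kinase tier in IL-10+ and 40.3% in IL-10- cells, and Mknk1 made up 7.32% and 3.91%.

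**Figure D3:**
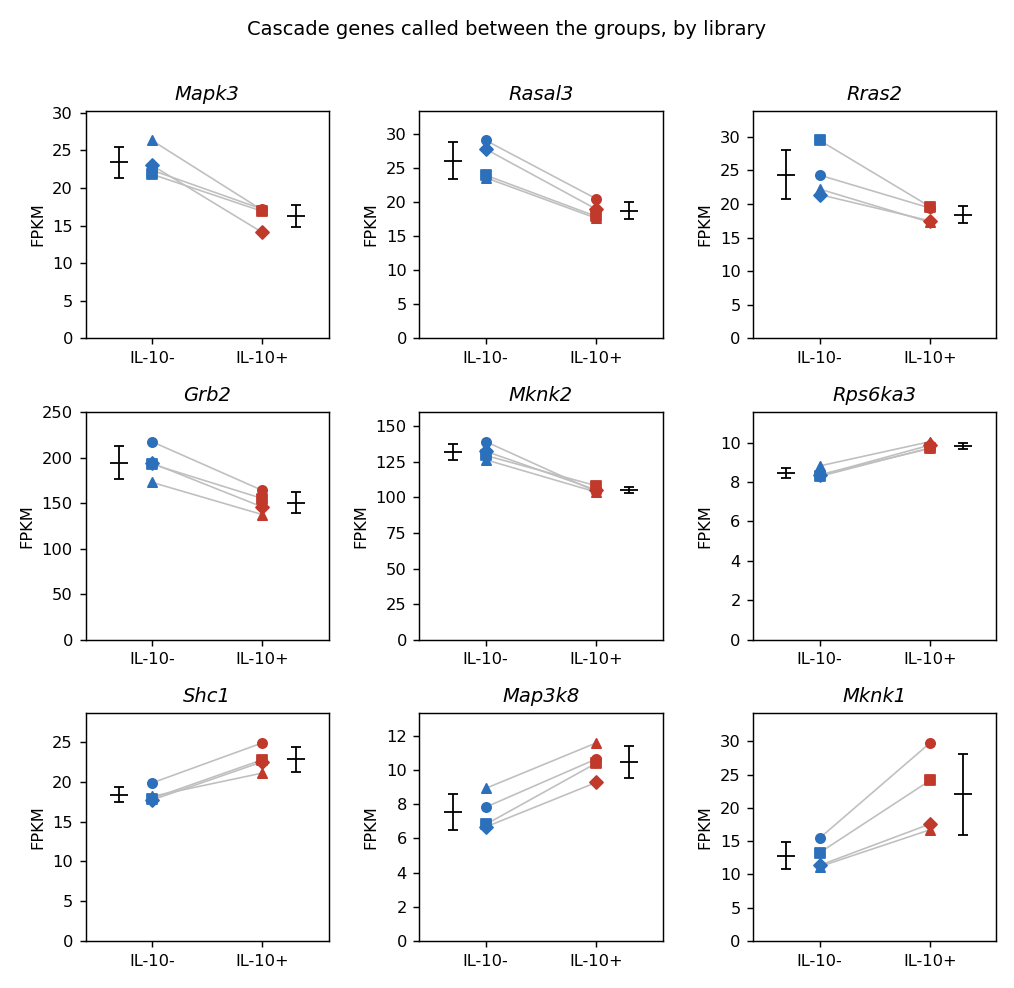
FPKM of the 9 called genes in each library, in panels ordered from the largest fall to the largest rise, with axes starting at 0. Grey lines join libraries of the same replicate number (circle 1, square 2, diamond 3, triangle 4), and black bars show the mean and SD of each group. In each panel the groups do not overlap and all 4 lines run the same way.

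The opposed directions within a tier appeared as shifted ratios between genes. The ratio of Mknk1 to Mknk2 FPKM was 0.286, 0.223, 0.167 and 0.161 in IL-10+ replicates 1 to 4 and 0.111, 0.102, 0.0858 and 0.0883 in IL-10- replicates 1 to 4, with means of 0.209 ± 0.0583 and 0.0969 ± 0.0119. The ratio of Grb2 to Shc1 was 6.59, 6.81, 6.47 and 6.51 in IL-10+ and 11.0, 10.8, 11.0 and 9.52 in IL-10- libraries. Neither ratio overlapped between groups, which was fixed in advance because their genes moved in opposite directions without overlap. Grb2 remained the more abundant adaptor in both groups. The ratio of Rps6ka1 to Rps6ka3, of which only Rps6ka3 was called, averaged 3.81 ± 0.147 and 4.40 ± 0.178, again with no overlap.

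Other ratios overlapped between the groups. That of Map2k1 to Map2k2 averaged 1.35 ± 0.164 in IL-10+ and 1.61 ± 0.195 in IL-10- cells, and that of Rras2 to Nras averaged 0.938 ± 0.118 and 1.24 ± 0.200. The ratio of Rasgrp3 to Rasgrp1 averaged 4.04 ± 0.8 and 4.37 ± 0.670, and that of Nras to Hras 2.98 ± 0.493 and 3.08 ± 0.475. These ratios are descriptions of genes already compared above, and they were not tested.

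**Figure D4:**
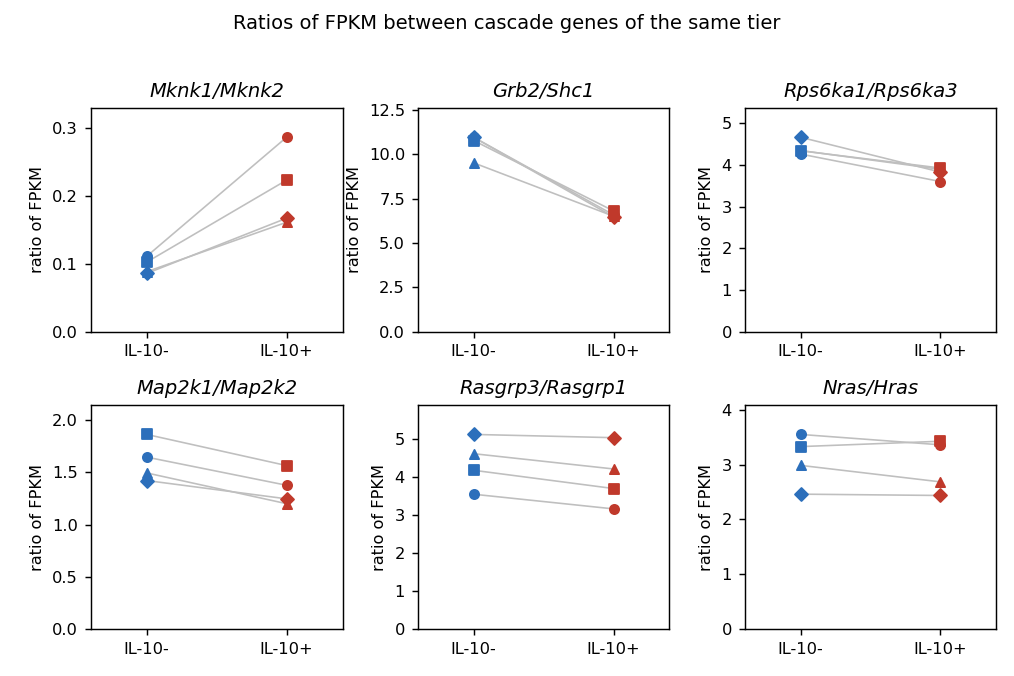
Ratio of FPKM between paired genes of the same tier in each library, with axes starting at 0. Symbols give the replicate number (circle 1, square 2, diamond 3, triangle 4) and grey lines join libraries of the same number. The groups do not overlap for Mknk1/Mknk2, Grb2/Shc1 and Rps6ka1/Rps6ka3, and they overlap for Map2k1/Map2k2, Rasgrp3/Rasgrp1 and Nras/Hras.

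Among the inhibitors, Spred2, whose protein binds neurofibromin and restrains RAF activation, was the most abundant. It measured 5.69, 5.99, 4.61 and 4.76 FPKM in IL-10+ and 4.55, 4.54, 3.57 and 3.92 FPKM in IL-10- replicates 1 to 4. The lowest IL-10+ value was just above the highest IL-10- value. The log2 change of 0.28 (SE 0.101) was not called (limma adjusted p = 0.0875) and passed with the replicate block (0.00206). Spred1, its relative, had 2.67, 2.53, 1.68 and 2.28 FPKM in IL-10+ and 3.00, 2.78, 1.72 and 2.40 FPKM in IL-10- replicates 1 to 4. It overlapped between groups, with a log2 change of -0.07 (SE 0.145, limma adjusted p = 0.768).

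The Sprouty genes Spry1 and Spry2, feedback inhibitors of receptor signalling, were below the filter. Spry2 was at 0.805, 0.308, 0.0498 and 0.274 FPKM in IL-10+ and at 1.57, 0.538, 0.494 and 0.496 FPKM in IL-10- replicates 1 to 4, which corresponds to 3 to 92 reads. It was lower within all 4 numbers, but the ranges overlapped, and the exact permutation test, two-sided, returned p = 0.257 (0.571 adjusted over the 4 genes below the filter). Spry1 had 3 to 15 reads per library, and the same exact test returned p = 0.714.

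Replicate numbers left a mark of their own on many cascade genes. Within both groups, 20 of the 30 tested genes had a higher mean in replicates 1 and 2 than in replicates 3 and 4, 8 had a lower one, and 2 went in different directions. The ratio of these means was 1.47 and 1.66 for Rasa3 and 1.57 and 1.27 for Mknk1 in IL-10+ and IL-10- cells, and 0.693 and 0.739 for Hras. Within replicates 1 and 2 alone limma called 1 gene higher, Mknk1, and 0 lower, with 4 and 5 at an unadjusted p under 0.05 and 9.76% of all genes called. Within replicates 3 and 4 alone 2 were called higher and 6 lower, with 23.6% of all genes called. Of the 30 genes, 9 were higher and 15 lower in IL-10+ cells within all 4 numbers, where 24.3% of all genes were higher and 40.4% lower.

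RefSeq promoter entries (GRCm38.p6) were matched for 30 of the 34 genes, and not for Mapk3, Map3k8, Gab2 and Rps6ka3. The 250 bases before the most upstream start were searched on both strands. The GC box GGGCGG was found in 22 of 30 windows (73.3%), against 33.0% of 27025 windows of the same length over all genes, and the median GC content was 63.4% against 52.0%. The ETS core CCGGAA was found in 8 windows (26.7% against 12.3%), among them those of Map2k1, Sos1 and Hras. The E-box CACGTG was found in 3 (10.0% against 6.04%) and CCAAT in 10 (33.3% against 34.5%). The AP-1 site TGANTCA and the XBP1 element TGACGTGG were found in 0 windows, against 6.85% and 0.496% of all genes. These matches are letters in a window and not evidence of binding.

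The windows before the starts of Mknk1 and Mknk2, the related kinases called in opposite directions, are printed because they share neither of the motifs that were matched in them. Each covers the 200 bases before the start, 5′ to 3′ on the strand of the gene, and capitals mark motif matches on either strand. Mknk1 lies on the plus strand at chr4:115838998-115839197, and its capitals mark an E-box, 70 to 65 bases before the start. Mknk2 lies on the minus strand at chr10:80676294-80676493, and its capitals mark GC boxes, 184 to 179 and 56 to 51 bases before the start. That start is the RefSeq one. In GENCODE M21 Mknk2 spans chr10:80665327-80678112, so its window lies inside the gene, while the window of Mknk1 lies outside its gene (chr4:115839198-115879250).
Mknk1: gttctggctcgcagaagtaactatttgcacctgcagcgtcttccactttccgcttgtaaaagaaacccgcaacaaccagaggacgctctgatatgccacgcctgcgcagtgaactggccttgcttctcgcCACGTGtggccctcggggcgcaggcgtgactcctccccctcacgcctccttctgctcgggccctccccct
Mknk2: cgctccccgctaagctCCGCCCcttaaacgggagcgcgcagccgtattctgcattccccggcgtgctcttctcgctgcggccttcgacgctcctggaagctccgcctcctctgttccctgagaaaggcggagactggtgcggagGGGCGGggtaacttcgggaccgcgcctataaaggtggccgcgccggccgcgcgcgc

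Further genes of the cascade, outside the 34, were also measured. Of 42 listed, 40 were found and 24 passed the filter, and 4 were called higher and 3 lower (7 and 5 with the replicate block). This was 29.2% of those tested and 50% with the block, against 19.7% and 53.7% of all genes, and the median log2 change was -0.01. The adaptor gene Grap2, a relative of Grb2, fell from 10.9 ± 1.98 to 5.66 ± 0.937 FPKM (log2 change -0.83, SE 0.134, limma adjusted p = 0.00277). The GAP genes Rasal1 and Dab2ip rose, Rasal1 from 8.42 ± 0.434 to 13.4 ± 0.982 FPKM (0.61, SE 0.0684, adjusted p = 0.000375) and Dab2ip from 1.14 ± 0.172 to 2.59 ± 0.250 FPKM (0.75, SE 0.0893, adjusted p = 0.000527). Rps6ka2, which encodes RSK3, rose from 0.495 ± 0.107 to 1.30 ± 0.134 FPKM (0.62, SE 0.0930, adjusted p = 0.00193). It passed the filter on low values only through the IL-10+ libraries (1.10 to 1.39 FPKM), as the IL-10- libraries held 0.397 to 0.638 FPKM. Rps6ka2 was therefore tested only because it was high in that group, and its p-value is not independent support. Within replicates 3 and 4 its call was lost (limma adjusted p = 0.0544). The other 3 called genes were Lztr1, which was higher, and Lat2 and Rasa4, which were lower. GAP genes therefore moved in both directions, with Rasal1 and Dab2ip higher and Rasal3 and Rasa4 lower in IL-10+ cells.

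Of the 8 phosphatases that act on ERK, 7 were tested, and 1 was called higher and 1 lower (3 and 2 with the replicate block). The share was 28.6%, and 71.4% with the block, against 19.7% and 53.7% of all genes, and the median log2 change was 0.14. Dusp4, a nuclear ERK phosphatase, was at 35.3 ± 11.9 and 16.7 ± 6.04 FPKM in IL-10+ and IL-10- cells (log2 change 1.03, SE 0.289, limma adjusted p = 0.0377). Dusp2 was at 20.4 ± 2.77 and 29.0 ± 4.83 FPKM (-0.48, SE 0.136, adjusted p = 0.0376). For both genes the groups overlapped. With no filter on low values both calls were lost (limma adjusted p = 0.0928 for Dusp4 and 0.0818 for Dusp2). That of Dusp2 was also lost with both rescalings (0.055 and 0.0557). Dusp4 lost its call without IL-10- replicate 2, 3 or 4 or IL-10+ replicate 1, 2 or 3 (adjusted p from 0.0734 to 0.10), and Dusp2 without IL-10- replicate 1, 2 or 3 or IL-10+ replicate 2, 3 or 4 (0.0683 to 0.0946).

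Of 20 transcription-related genes known to respond to ERK, 14 were tested, and 1 was called higher and 1 lower (5 and 3 with the replicate block). That share of 14.3%, and 57.1% with the block, compares with 19.7% and 53.7% of all genes, and the median of the log2 changes was 0.22. Etv5, an ETS family factor, rose from 2.61 ± 0.417 to 4.20 ± 0.462 FPKM (0.53, SE 0.104, limma adjusted p = 0.00776). Elk1, which ERK phosphorylates, fell from 4.68 ± 0.367 to 3.72 ± 0.323 FPKM (-0.27, SE 0.0760, adjusted p = 0.0397). Without IL-10- replicate 1, 2 or 4 or IL-10+ replicate 1, 2 or 4, the Elk1 call was lost (0.0640 to 0.105). It was also lost with both rescalings (limma adjusted p = 0.0699 and 0.0708) and with no filter on low values (0.0836).

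Among 14 genes of the p38 and JNK arms and their upstream kinases, 11 were tested, and 1 was called higher and 2 lower (2 and 4 with the replicate block). The share was 27.3%, and 54.5% with the block, where all genes gave 19.7% and 53.7%, and the log2 changes had a median of -0.10. The p38 beta gene Mapk11 stood at 6.81 ± 2.93 and 13.7 ± 3.83 FPKM (-0.96, SE 0.282, limma adjusted p = 0.0453), with overlapping groups. The JNK2 gene Mapk9 fell from 8.79 ± 0.342 to 7.32 ± 0.508 FPKM (-0.24, SE 0.0643, adjusted p = 0.0339), and Map3k5, which encodes the stress kinase ASK1, rose from 12.1 ± 1.2 to 14.6 ± 0.692 FPKM (0.26, SE 0.0781, adjusted p = 0.0499). Each of the 3 calls was lost in 7 of the 8 fits that left out a single library. It remained only without IL-10+ replicate 1 for Mapk11 and Mapk9 and only without IL-10- replicate 1 for Map3k5. The highest adjusted p were 0.107 for Mapk11, 0.0907 for Mapk9 and 0.122 for Map3k5. All 3 calls were also lost with no filter on low values (limma adjusted p from 0.0511 to 0.108). Those of Mapk11 and Mapk9 were lost with both rescalings (0.0517 to 0.0726). That of Map3k5 was lost with a pseudocount of 0.1 (0.0501) or without a variance trend (0.0558).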

How the data were processed

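The authors deposited 1 table of FPKM values (reads scaled by gene length and library total) for 26589 genes in 8 libraries. HISAT2 2.1.0, HTSeq 0.6.0 and the build mm10 are named in the submitters' processing notes. The annotation, the strand setting and how reads common to several genes were counted are not stated there. The labels carry a treatment tag of untreated, but their protocols describe lipopolysaccharide and were followed. Symbols came from GENCODE M21 for 26550 identifiers, and 39 were not found. Reads recovered from FPKM, gene length and a library total were whole within 0.05 for 93.2% to 93.6% of values, and they served for depth only. No libraries of a group were near-copies, with a chi-square per degree of freedom of 9.82 to 92.1 between them.

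limma 3.58.1 in R 4.3.3 compared the groups on log2(FPKM + 1), so with a pseudocount of 1, allowing a variance trend. It ran over the 11329 genes that reached 1 FPKM in 4 or more libraries. This scale understates changes of low genes. A run of the fit on simulated data drew values independently for each library, without the deviations shared by libraries of one replicate number. That run therefore does not show how the fit behaves with such deviations. Members below the filter had exact permutation tests, in which the smallest possible p for 4 against 4 libraries is 0.0286.

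The cascade members and all gene lists were chosen with earlier results of these data known. Full values were given for every called member and, in tiers with fewer than 2, for up to 2 of the most abundant uncalled members. From each other list up to 4 called genes with the largest change were named. Lztr1, Lat2, Rasa4, the uncalled members named beyond this rule and the windows printed were chosen after values were seen.

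Deviations from the group means were shared by libraries of one replicate number (correlations across genes of 0.71, 0.58, 0.62 and 0.70 for numbers 1 to 4). The number was therefore entered as a block in alternative fits. The main fit, with its calls, SE and intervals, and the fits that left out a library took no account of the number. Pairing by number rests on the data and not on the labels, and blocked values are given where a call changed. Alternatives covered the pseudocount, the filter, 2 rescalings, the block, the variance trend, replicates 1 and 2 alone, replicates 3 and 4 alone and each library left out.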

Additional observations from a re-analysis of the deposited data

Results flagged for a closer look

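Among 67 groups of 4 libraries of cascade genes that could be examined, Dixon's test at the 95% level marked 4 single libraries as far from the other 3 of their group, and chance marks about 1 in 20 groups. Rasa1 was at 8.10 FPKM in IL-10- replicate 1, where the others lay between 7.34 and 7.45 FPKM. Mapk3 was at 14.1 FPKM in IL-10+ replicate 3, where the others lay between 16.9 and 17.2 FPKM, and its call held without that library. Rps6ka3 was at 8.81 FPKM in IL-10- replicate 4, against 8.28 to 8.36 FPKM in the others. Spry2 was at 1.57 FPKM in IL-10- replicate 1, against 0.494 to 0.538 FPKM in the others.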

How the results depend on the processing

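With the replicate block, the count of cascade genes called moved from 4 higher and 5 lower to 7 higher and 9 lower, and over all genes from 1196 and 1040 to 2312 and 3771. With the block and either rescaling (median-of-ratios, or without immunoglobulin and mitochondrial genes) it was 8 higher and 8 lower. Over all genes these 2 fits gave 2615 and 3005, and 2551 and 3112. Apart from the calls named in the text, the block changed no other call of a named gene. Within replicates 1 and 2 the counts were 1 higher and 0 lower, with 786 and 320 over all genes. Within replicates 3 and 4 they were 2 higher and 6 lower, with 1288 and 1380 over all genes. Fits on 4 libraries have few degrees of freedom. Leaving out 1 library gave 0 to 4 higher and 3 to 5 lower, with 991 to 1168 and 607 to 954 over all genes. The cause was not tested.

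Among the named genes, the sign reversed for 3 uncalled ones whose change was near 0. Within replicates 1 and 2 the log2 change was -0.0012 for Rasgrp3 and -0.0060 for Nras. When 1 library was left out it ranged from -0.0022 to 0.12 for Rasgrp3, from -0.030 to 0.055 for Nras and from -0.19 to 0.021 for Spred1. The pseudocounts of 0.1 and 0.5, the stricter filter of 5 FPKM, both rescalings and the fit without a variance trend left the higher count at 4 and the lower count at 4 or 5. With no filter on low values, Rras2 and Mknk1 lost their calls and 3 were higher and 4 lower. At most 1 read was recovered for Gab1 in any library, under the 3 reads that a count of 0 allows.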
